A study of Mus musculus with 18 samples.

Results

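Cell cycle exit in muscle rests on a small set of genes, of which 10 were followed here: the CDK inhibitor genes Cdkn1a (p21), Cdkn1b (p27), Cdkn2b (p15) and Cdkn2c (p18), the D-type cyclin genes Ccnd1, Ccnd2 and Ccnd3, and the pocket protein genes Rb1, Rbl1 (p107) and Rbl2 (p130). The members were taken as the rows of the expression table whose Ensembl identifier maps to one of these symbols, and all 10 were found among its 48795 gene rows. The rule uses no measured value. Of the 10 genes, 9 passed the filter on low counts and were tested, and Cdkn2b had no count in any library.

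The samples were C2C12 myotubes, fused from a mouse myoblast line by 5 days in low horse serum. They made 6 groups of 3 libraries. In the DEX group, myotubes received 0.1% DMSO for 12 h and then the glucocorticoid dexamethasone at 200 µM for 24 h. In the DEX + gRc 10 µM and DEX + gRc 20 µM groups, ginsenoside Rc (gRc), a ginseng saponin, was given for the first 12 h. Its dose was 10 or 20 µM, and dexamethasone at 200 µM followed for 24 h. The labels count 36 h of gRc for these groups, so its presence during the dexamethasone step is taken from that count. The gRc 10 µM and gRc 20 µM groups had gRc alone for 36 h, and the control group had 0.1% DMSO for 36 h. A DMSO content is not given for the groups with gRc. All cells are one immortal line, and such cultures keep some unfused cells beside the myotubes. The labels leave unsaid whether replicate libraries go back to separate cultures, and p-values here measure the spread between libraries, which may be technical.

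Cyclin D binds CDK4 or CDK6 and starts the phosphorylation of the pocket proteins, which in their unphosphorylated form hold E2F transcription factors and silence the genes of DNA replication and mitosis. The INK4 inhibitors, p15 and p18, block CDK4 and CDK6, while the CIP/KIP inhibitors, p21 and p27, block the later cyclin E and cyclin A complexes and also bind cyclin D complexes. In myoblasts that leave the cycle to fuse, p21 is switched on early, Rb keeps the nuclei of the myotube from replicating again, and cyclin D3 is the D-type cyclin that stays high while cyclin D1 is lost.

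Libraries held 32350889 to 45388609 counts. The dexamethasone labels matched the glucocorticoid-induced gene Fkbp5, at 412 to 447 counts-per-million (CPM) in the 9 libraries with dexamethasone, against 21.6 to 24.9 CPM in the 9 without. One library stood apart: replicate 2 of gRc 20 µM lay at -47.9 on the second principal component, and mitochondrial genes took 2.79% of its counts, against 1.26% to 1.91% in the other 17. Where leaving this library out changed a member's call, both values are given. Changes of direction among values that were not called are given only in part. The measurements are of bulk RNA, in which fewer cells of a type and less RNA per cell cannot be told apart.

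The members spanned a wide range of transcript levels, compared here as CPM per kilobase of merged exons. In DEX myotubes Cdkn1a stood highest at 607 ± 10.9 (SD, n = 3), with 628 ± 15.2 in control myotubes. Ccnd3 came next, at 67.5 ± 0.866 in DEX and 78.8 ± 5.67 in control myotubes. Rb1, Cdkn1b and Rbl2 followed in that order in both groups, at 28, 20.4 and 14.6 in DEX myotubes and 25.8, 16 and 12.3 in control myotubes. The library ranges of these first 5 genes did not overlap their neighbours in either group.

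Below them the order differed between the groups. In DEX myotubes Cdkn2c (4.91 ± 0.118 per kilobase) and Ccnd1 (4.29 ± 0.878) overlapped, ahead of Ccnd2 (1.58) and Rbl1 (1.3). In control myotubes the order was Ccnd1 (10.2 ± 0.162), Cdkn2c (8.15 ± 0.692), Rbl1 (2.65) and Ccnd2 (2.28). The upper places hold a CDK inhibitor, the D-type cyclin of differentiated muscle and the pocket protein that myotubes need to stay out of the cycle. With the longest transcript as the length, Rbl2 and Cdkn1b exchanged places in both groups, as did Cdkn2c and Ccnd1 in DEX and Rbl1 and Ccnd2 in control myotubes.

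**Figure D1:**
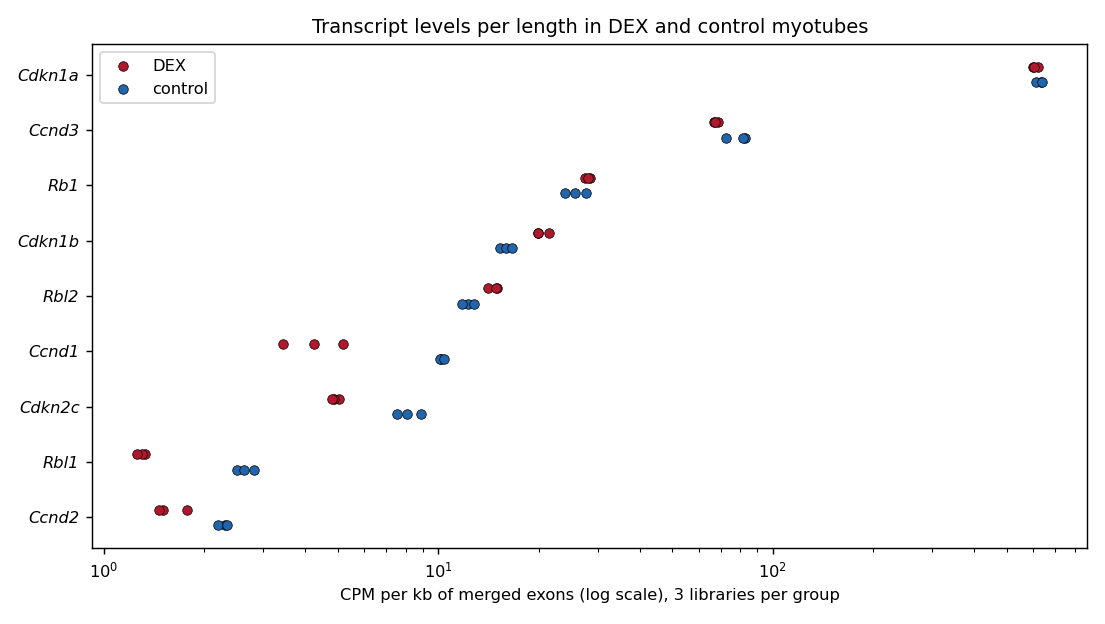
Transcript level per length of the 9 detected members in DEX (red) and control (blue) myotubes, as CPM per kilobase of merged exons on a log axis, 1 point per library. Cdkn1a lies near 600 in both groups, Ccnd3 follows, and Ccnd1, Cdkn2c, Rbl1 and Ccnd2 are the lowest, each lower in DEX than in control libraries.

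Dexamethasone was set against control to ask how the exit machinery stands in glucocorticoid-treated myotubes. All 3 D-type cyclins, the inhibitor Cdkn2c and the pocket protein Rbl1 were lower in DEX than in control myotubes, the inhibitor Cdkn1b and the pocket protein Rbl2 were higher, and Cdkn1a and Rb1 did not pass the test. That is 7 of 9 members called by edgeR's quasi-likelihood test at an adjusted p below 0.05, where 43.8% of all 15436 tested genes were called, so a call in itself says little about these genes at this background. By direction, 2 members were higher (20.6% of all genes) and 5 were lower (23.2%). The groups of 3 libraries did not overlap for the same 7 members, 2 higher and 5 lower, against 59.3% of all genes. The median log2 change was -0.22 over the 9 members and -0.01 over all tested genes.

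**Figure D2:**
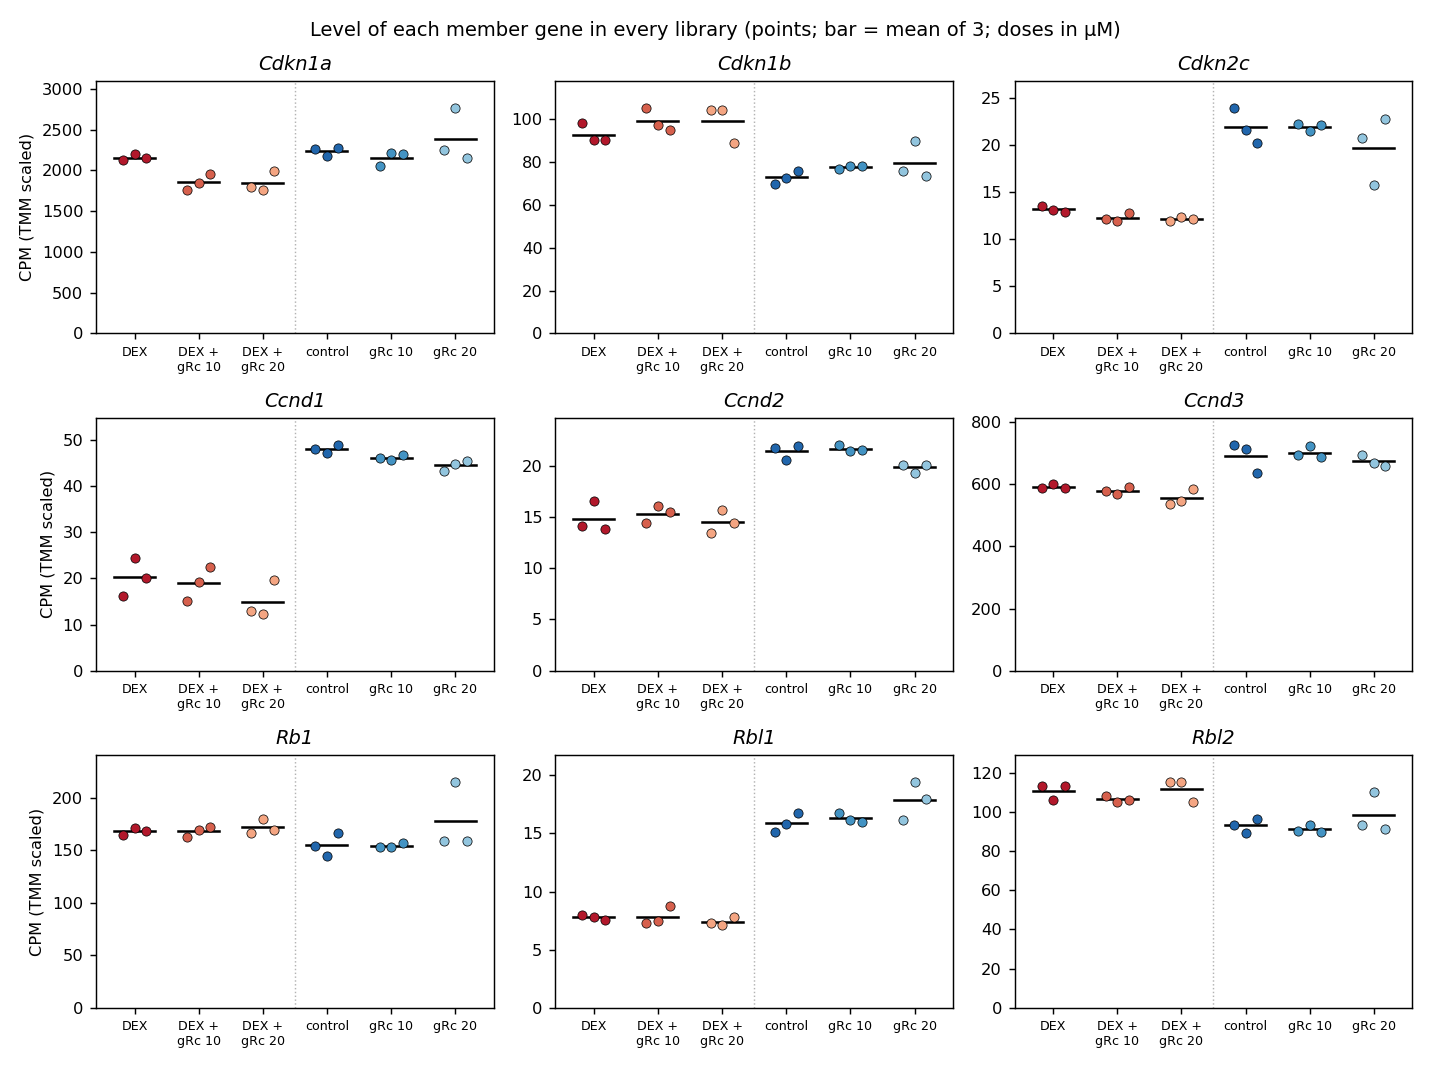
Level of the 9 detected members in all 18 libraries, in TMM-scaled CPM, 1 point per library, with a bar at the mean of 3 and the dexamethasone groups left of the dotted line. Ccnd1, Ccnd2, Cdkn2c and Rbl1 lie lower in every dexamethasone library than in any control library, and replicate 2 of gRc 20 µM stands off for Cdkn1a, Cdkn2c and Rb1.

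Among the inhibitors of the CIP/KIP family, Cdkn1a (ENSMUSG00000023067, chr17:29090976-29100727, + strand, GRCm38) is the gene of p21, a target of both MyoD and p53. Its level was 2124, 2200 and 2148 CPM in the DEX libraries, against 2258, 2171 and 2269 CPM in the control libraries. The groups overlapped, and the log2 change was -0.05 ± 0.08 (SE; 95% interval -0.21 to 0.11; edgeR adjusted p = 0.65). Cdkn1a made up 96% of the summed transcripts per length of the 4 inhibitor genes in DEX and 96.3% in control myotubes, so it sets their sum.

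Cdkn1b (ENSMUSG00000003031, chr6:134920401-134925513, + strand) encodes p27, which accumulates in quiescent cells and is removed by the ubiquitin ligase SCF-Skp2. It stood at 97.9, 90.1 and 89.9 CPM in the DEX libraries, against 69.6, 72.6 and 75.8 CPM in the control libraries. All 3 DEX libraries lay above all 3 controls. The log2 change was 0.35 ± 0.07 (adjusted p = 0.00067), with means of 92.6 ± 4.58 and 72.6 ± 3.1 CPM (SD, n = 3) in DEX and control myotubes.

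Of the INK4 family, Cdkn2c (ENSMUSG00000028551, chr4:109660876-109667189, - strand) encodes p18, which binds CDK4 and CDK6. Its level was 13.5, 13.1 and 12.9 CPM in the DEX libraries, against 23.9, 21.6 and 20.2 CPM in the control libraries. Every DEX library was below every control library. The log2 change was -0.73 ± 0.10 (adjusted p = 5e-06), the opposite direction to Cdkn1b.

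Cdkn2b (ENSMUSG00000073802, chr4:89306299-89311039, - strand), the gene of p15, had 0 counts in all 18 libraries, which allows at most 0.0662 to 0.0907 CPM per library if 3 counts are taken as the limit. It could not be tested, and whether it is expressed below that limit was not detectable at this depth. The limit covers counting error only.

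The D-type cyclins all fell with dexamethasone, by different amounts. Ccnd1 (ENSMUSG00000070348, chr7:144929931-144939925, - strand) encodes cyclin D1, the mitogen-induced cyclin of cycling myoblasts. Its level was 16.2, 24.4 and 20.0 CPM in the DEX libraries, against 48.0, 47.3 and 48.9 CPM in the control libraries. The groups lay far apart, with a wider spread among the DEX libraries, and the log2 change was -1.25 ± 0.16 (95% interval -1.59 to -0.91; adjusted p = 6.6e-06). The gene LTO1 on the other strand shares 1100 bp of exon with Ccnd1. It averaged 21.3 CPM in DEX and 20.6 CPM in control myotubes (adjusted p = 0.8).

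Ccnd2 (ENSMUSG00000000184, chr6:127125162-127152193, - strand) encodes cyclin D2. It had 14.1, 16.6 and 13.8 CPM in the DEX libraries, against 21.7, 20.6 and 21.9 CPM in the control libraries, a log2 change of -0.53 ± 0.07 (adjusted p = 8e-06). Ccnd3 (ENSMUSG00000034165, chr17:47505051-47599691, + strand) encodes cyclin D3, the D-type cyclin that is kept in differentiated muscle. It had 587, 601 and 588 CPM in the DEX libraries, against 726, 715 and 635 CPM in the control libraries. The DEX libraries were again all below the controls, with the smallest change of the 3 cyclins, -0.22 ± 0.05 on the log2 scale (adjusted p = 0.0018). Bysl, which shares 361 bp of exon with Ccnd3 on the other strand, averaged 72.5 CPM in DEX and 69.3 CPM in control myotubes (adjusted p = 0.48).

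Cyclin D3 transcripts formed a larger share of a smaller total. The summed level per length of the 3 cyclins was 73.4 ± 1.86 CPM per kilobase in DEX and 91.3 ± 5.5 in control myotubes (SD, n = 3). Ccnd3 made up 92% of it in DEX, 92.1% in DEX + gRc 10 µM and 93.1% in DEX + gRc 20 µM myotubes. Without dexamethasone it made up 86.3% in control, 86.8% in gRc 10 µM and 86.9% in gRc 20 µM myotubes. The share of Ccnd1 was 5.84 ± 1.05% in DEX and 11.2 ± 0.857% in control myotubes. These shares are descriptions without a test.

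The 3 pocket proteins did not move together. Rb1 (ENSMUSG00000022105, chr14:73183673-73325822, - strand) encodes the retinoblastoma protein, which binds the activating E2F factors. Its level was 165, 171 and 169 CPM in the DEX libraries, against 154, 145 and 167 CPM in the control libraries. The groups overlapped, and the log2 change of 0.12 ± 0.09 did not pass the test (95% interval -0.06 to 0.30; adjusted p = 0.29). Without gRc 20 µM replicate 2 in the model, the same change of 0.12 was called for Rb1 (adjusted p = 0.024). Rb1 also shares 488 bp of exon with Rcbtb2 and 408 bp with Lpar6 on the other strand. Both of these genes were lower, by log2 changes of -0.33 (adjusted p = 0.00056) and -0.82 (adjusted p = 6.6e-05). Their part in the Rb1 value was not tested.

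Rbl1 (ENSMUSG00000027641, chr2:157145893-157204534, - strand) encodes p107, the pocket protein of cycling cells and itself a known E2F target. It had 7.98, 7.8 and 7.56 CPM in the DEX libraries, against 15.1, 15.8 and 16.8 CPM in the control libraries. The ranges were narrow and well apart, and its log2 change of -1.03 ± 0.08 had the smallest adjusted p of the 9 members (5.6e-09). Rbl2 (ENSMUSG00000031666, chr8:91070057-91123844, + strand) encodes p130, the pocket protein that binds E2F4 in quiescent and differentiated cells. It had 113, 106 and 113 CPM in the DEX libraries, against 93.3, 89.3 and 96.4 CPM in the control libraries. All 3 DEX libraries were higher, with a log2 change of 0.25 ± 0.06 (adjusted p = 0.0026). On the other strand Aktip shares 693 bp of exon with Rbl2, and averaged 56 CPM in DEX and 55.3 CPM in control myotubes (adjusted p = 0.82).

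Per length, Rbl1 was 2.96 ± 0.099% of the 3 pocket protein transcripts in DEX and 6.51 ± 0.316% in control myotubes. Rbl2 was 33.3 ± 1.06% in DEX and 30.2 ± 0.669% in control myotubes, and Rb1 was 63.7% in DEX and 63.3% in control myotubes. Their sum was 43.9 ± 0.293 CPM per kilobase in DEX and 40.7 ± 2.42 in control myotubes.

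Start-site windows from RefSeq (GRCm38.p6; 250 bases before to 50 after the annotated start) were read for 7 members, all but Ccnd1, Ccnd2 and Rb1, with 10 windows in all, and scanned on both strands for the E2F letters TTTCCCGC, TTTGGCGC, TTTCGCGC and TTTGCCGC, the cell cycle homology letters TTTGAA, the glucocorticoid receptor letters AGAACA, the FOXO letters GTAAACA and the MyoD-type E-box CAGCTG. Printed are the Rbl1 window and the first Cdkn2c window, of genes that fell, and the Cdkn1b window, of a gene that rose. They are the clearest contrast among the members. Capitals mark the letters found.

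Rbl1, chr2:157204485-157204784, - strand: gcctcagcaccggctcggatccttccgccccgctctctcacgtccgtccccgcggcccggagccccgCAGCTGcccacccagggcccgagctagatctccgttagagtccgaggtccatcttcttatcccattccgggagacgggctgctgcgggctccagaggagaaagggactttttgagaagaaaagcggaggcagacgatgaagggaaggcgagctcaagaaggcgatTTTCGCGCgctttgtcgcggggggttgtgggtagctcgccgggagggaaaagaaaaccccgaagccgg

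Cdkn2c, chr4:109666707-109667006, - strand: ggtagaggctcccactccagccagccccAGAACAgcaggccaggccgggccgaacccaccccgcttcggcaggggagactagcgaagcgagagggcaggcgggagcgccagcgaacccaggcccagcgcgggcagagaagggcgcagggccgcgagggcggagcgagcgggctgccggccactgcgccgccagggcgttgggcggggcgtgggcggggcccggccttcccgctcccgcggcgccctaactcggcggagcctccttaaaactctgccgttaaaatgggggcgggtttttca

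Cdkn1b, chr6:134920151-134920450, + strand: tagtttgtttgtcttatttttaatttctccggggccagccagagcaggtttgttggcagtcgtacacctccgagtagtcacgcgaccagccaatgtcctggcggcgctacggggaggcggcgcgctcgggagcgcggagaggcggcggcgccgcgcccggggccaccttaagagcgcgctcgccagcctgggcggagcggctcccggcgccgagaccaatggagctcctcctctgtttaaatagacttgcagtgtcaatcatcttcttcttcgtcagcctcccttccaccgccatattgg

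The Rbl1 window holds TTTCGCGC 18 bases before the start and CAGCTG 183 bases before it. E2F letters occur in 2.26% of all 32851 windows and CAGCTG in 16.3%. The first Cdkn2c window holds AGAACA 222 bases before the start, found in 19% of windows. Among the other members, the first Cdkn1a window holds CAGCTG 37 bases after the start. The first Ccnd3 window holds GTAAACA on the strand opposite to the gene (3.65% of windows). The Rbl2 and Cdkn2b windows hold TTTGAA, also on the strand opposite to the gene (17.9%). The Cdkn1b window and the second windows of Cdkn1a, Cdkn2c and Ccnd3 hold none of these letters. A match describes the letters and not binding.

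The dexamethasone effect was then measured in myotubes that also had gRc. With gRc at 10 µM, 8 of 9 members passed the test, 2 higher and 6 lower, against 44.2% of all genes (21.1% higher and 23.0% lower). With gRc at 20 µM, 8 members again passed, 2 higher and 6 lower, against 48.9% of all genes (23.5% higher and 25.4% lower). Cdkn1b and Rbl2 were the higher members at both doses. Libraries did not overlap for all 9 members at 10 µM (59.7% of all genes) and for the 6 lower members at 20 µM (50.1%). The added lower member was Cdkn1a, while Rb1 was not called at either dose. At 10 µM the Rb1 change of 0.12 (adjusted p = 0.28) was called with only the groups compared in the model (0.12, adjusted p = 0.012) and without gRc 20 µM replicate 2 in it (0.12, adjusted p = 0.02).

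**Figure D3:**
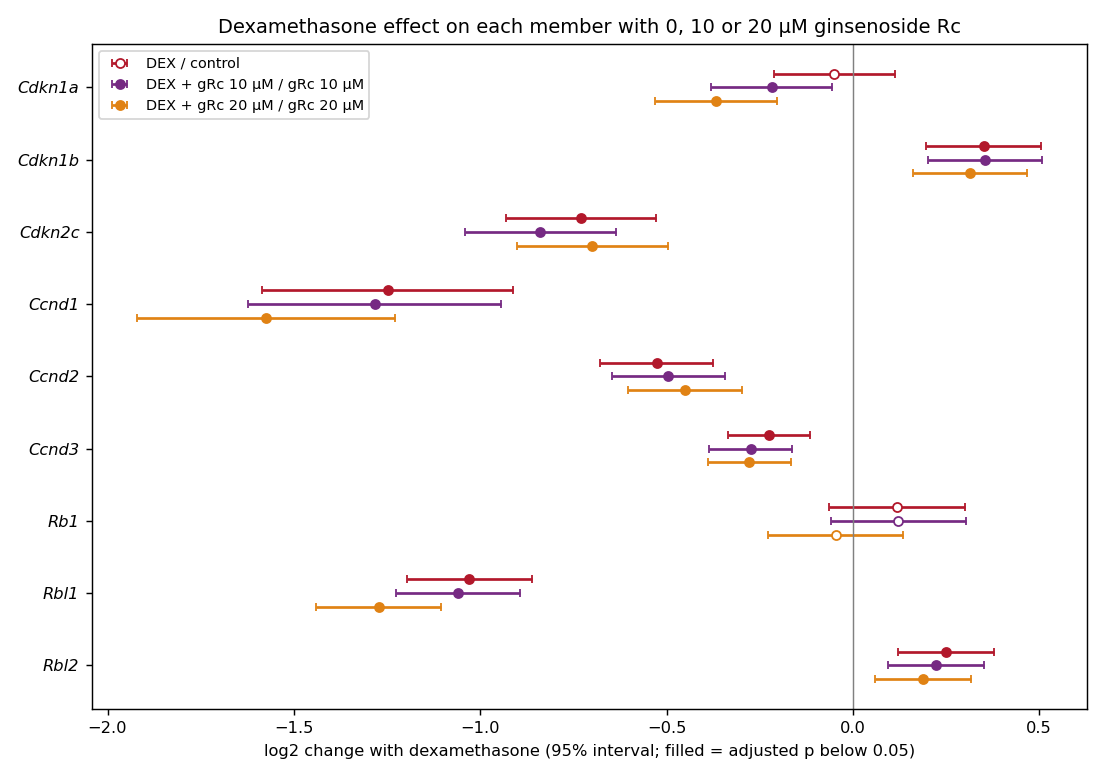
Log2 change with dexamethasone of each detected member with 0, 10 or 20 µM ginsenoside Rc, with 95% intervals from edgeR, filled where the adjusted p is below 0.05. The cyclins, Cdkn2c and Rbl1 lie left of 0 and Cdkn1b and Rbl2 right of it in all 3 settings, and Cdkn1a lies at -0.05, -0.22 and -0.37 with 0, 10 and 20 µM.

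Ccnd1 was at 15.2, 19.3 and 22.4 CPM in DEX + gRc 10 µM libraries, against 46.1, 45.8 and 46.7 CPM in gRc 10 µM libraries. At the higher dose it was at 13.0, 12.3 and 19.6 CPM in DEX + gRc 20 µM libraries, against 43.4, 44.8 and 45.4 CPM in gRc 20 µM libraries. Its log2 changes with dexamethasone were -1.28 (adjusted p = 5e-06) and -1.58 (adjusted p = 5.3e-07) at the 2 doses, and no library with dexamethasone reached any without it.

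Rbl1, the p107 gene, was at 7.3, 7.45 and 8.73 CPM in DEX + gRc 10 µM libraries, against 16.8, 16.2 and 16.0 CPM in gRc 10 µM libraries. In DEX + gRc 20 µM libraries it was at 7.28, 7.09 and 7.81 CPM, against 16.2, 19.4 and 18 CPM in gRc 20 µM libraries. The log2 changes were -1.06 (adjusted p = 3.5e-09) and -1.27 (adjusted p = 2.9e-10), both with groups far apart. Cdkn2c changed by -0.84 and -0.70, Ccnd2 by -0.50 and -0.45, and Ccnd3 by -0.27 and -0.28 at 10 and 20 µM gRc, with adjusted p-values between 9.4e-07 and 3e-04. Over the 6 libraries with both agents and the 6 with gRc alone, Cdkn2c ranged over 11.9 to 12.8 CPM and 15.7 to 22.7 CPM, Ccnd2 over 13.4 to 16.1 CPM and 19.3 to 22.0 CPM, and Ccnd3 over 537 to 591 CPM and 658 to 723 CPM. None of these ranges met.

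Cdkn1b, the p27 gene, averaged 98.9 ± 5.19 CPM in DEX + gRc 10 µM and 77.3 ± 0.782 CPM in gRc 10 µM myotubes (SD, n = 3; log2 change 0.35, edgeR adjusted p = 0.00058). At 20 µM it averaged 98.8 ± 8.76 CPM with dexamethasone and 79.5 ± 8.68 CPM without (log2 change 0.31, edgeR adjusted p = 0.0015). Rbl2 changed by 0.22 (adjusted p = 0.0062) and 0.19 (adjusted p = 0.017). At 20 µM the libraries of both genes overlapped, because gRc 20 µM replicate 2 lay high, at 89.5 CPM for Cdkn1b and 110 CPM for Rbl2. Without that library the log2 changes were 0.41 (adjusted p = 6.3e-06) for Cdkn1b and 0.28 (adjusted p = 1.7e-05) for Rbl2. The Rbl2 call at 20 µM was lost when any 1 of 4 other libraries was left out: replicate 1 of DEX + gRc 20 µM (adjusted p = 0.072), replicate 2 of that group (0.065), replicate 1 of gRc 20 µM (0.071) or its replicate 3 (0.092). It was also lost with only the groups compared in the model (0.17).

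Cdkn1a was called lower with dexamethasone at both gRc doses, though not without gRc. It had 1758, 1846 and 1955 CPM in DEX + gRc 10 µM libraries, against 2049, 2217 and 2196 CPM in gRc 10 µM libraries (log2 change -0.22 ± 0.08, adjusted p = 0.029). It had 1802, 1763 and 1987 CPM in DEX + gRc 20 µM libraries, against 2245, 2764 and 2152 CPM in gRc 20 µM libraries (log2 change -0.37 ± 0.08, adjusted p = 0.00065). Neither pair of groups overlapped. The call at 10 µM was lost when any of 4 single libraries was left out: replicate 1 of DEX + gRc 10 µM (adjusted p = 0.13), replicate 2 of that group (0.077), replicate 2 of gRc 10 µM (0.093) or its replicate 3 (0.085). At 20 µM the change of Cdkn1a was -0.25 without gRc 20 µM replicate 2 (adjusted p = 0.00051). For Rb1, whose change at 20 µM was -0.05 (adjusted p = 0.69), the value without that library was 0.12 (adjusted p = 0.049), since it held 215 CPM where the other 2 held 159 CPM each.

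Whether gRc altered the dexamethasone effect was tested by the interaction in the same edgeR model, and no member passed at either dose, as no gene of 15436 did (0% called). At 10 µM the adjusted p was 1 for all 9 members, and 0 had an unadjusted p below 0.05. At 20 µM the edgeR adjusted p was 0.88 to 0.97. An unadjusted p below 0.05 was seen for 2 members. For Cdkn1a the log2 changes differed by -0.32 (95% interval -0.55 to -0.09; unadjusted p = 0.0094, edgeR adjusted p = 0.88), and for Rbl1 by -0.24 (95% interval -0.48 to -0.01; unadjusted p = 0.045, edgeR adjusted p = 0.88). Without gRc 20 µM replicate 2 these differences were -0.20 (adjusted p = 0.75) and -0.18 (adjusted p = 0.91). DESeq2 also called 0 members in both interactions. The intervals still allow sizeable differences for Ccnd1, from -0.80 to 0.15 at 20 µM.

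The effect of gRc among dexamethasone-treated myotubes bears on whether it counters the glucocorticoid. No member passed the edgeR test between DEX + gRc and DEX myotubes at 10 µM (0.0259% of all genes called) or 20 µM (0.369% called). DESeq2 likewise called 0. At 10 µM the adjusted p was 1 for all members, and at 20 µM it was 0.29 to 1. An unadjusted p below 0.05 was seen for 1 member at 10 µM and 2 members at 20 µM, all lower with gRc.

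Cdkn1a was the member lower at both doses, at 1853 ± 98.4 CPM in DEX + gRc 10 µM and 1851 ± 120 CPM in DEX + gRc 20 µM myotubes, against 2157 ± 38.9 CPM in DEX myotubes (SD, n = 3). All 6 libraries with both agents lay below the 3 DEX libraries. The log2 changes were -0.22 at 10 µM (95% interval -0.38 to -0.06; unadjusted p = 0.011, edgeR adjusted p = 1) and -0.22 at 20 µM (95% interval -0.38 to -0.06; unadjusted p = 0.01, edgeR adjusted p = 0.29). In a model without gRc 20 µM replicate 2, the change at 20 µM passed for Cdkn1a (adjusted p = 0.016) and that at 10 µM did not (0.098). The 2 comparisons share the DEX libraries.

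Ccnd1 at 20 µM gave a log2 change of -0.44 ± 0.17 (95% interval -0.79 to -0.09; unadjusted p = 0.018, adjusted p = 0.38), with means of 15 ± 4.05 CPM in DEX + gRc 20 µM and 20.2 ± 4.13 CPM in DEX myotubes. Its libraries overlapped, since replicate 3 of DEX + gRc 20 µM stood at 19.6 CPM. Without that library the change of Ccnd1 was -0.68 (adjusted p = 0.032). At 10 µM the Ccnd1 change was -0.09 (95% interval -0.44 to 0.25).

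Libraries did not overlap for Cdkn1a and Cdkn2c at 10 µM (10.8% of all genes) and for Cdkn1a, Cdkn2c and Ccnd3 at 20 µM (14.9%), all lower with gRc. For Cdkn2c the levels were 12.1, 11.9 and 12.8 CPM in DEX + gRc 10 µM, 11.9, 12.4 and 12.1 CPM in DEX + gRc 20 µM and 13.5, 13.1 and 12.9 CPM in DEX libraries. For Ccnd3 they were 537, 546 and 585 CPM in DEX + gRc 20 µM and 587, 601 and 588 CPM in DEX libraries. Of the 5 members that fell with dexamethasone, Ccnd2 and Rbl1 had log2 changes above 0 with gRc at 10 µM (0.05 and 0.01, adjusted p = 1 for both), and all 5 were below 0 at 20 µM. The summed level of the 6 undifferentiated myoblast markers was also lower, at 598 to 615 CPM in DEX + gRc 10 µM and 577 to 600 CPM in DEX + gRc 20 µM libraries. In DEX libraries it was 618 to 638 CPM. The largest part of this sum was Cdh15, at means of 339 CPM in DEX + gRc 10 µM, 338 CPM in DEX + gRc 20 µM and 360 CPM in DEX myotubes. Of the 6 markers, 2 had a log2 change above 0 with gRc at 10 µM and 1 at 20 µM, and 0 were called. The part of these markers in the result was not tested.

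**Figure D4:**
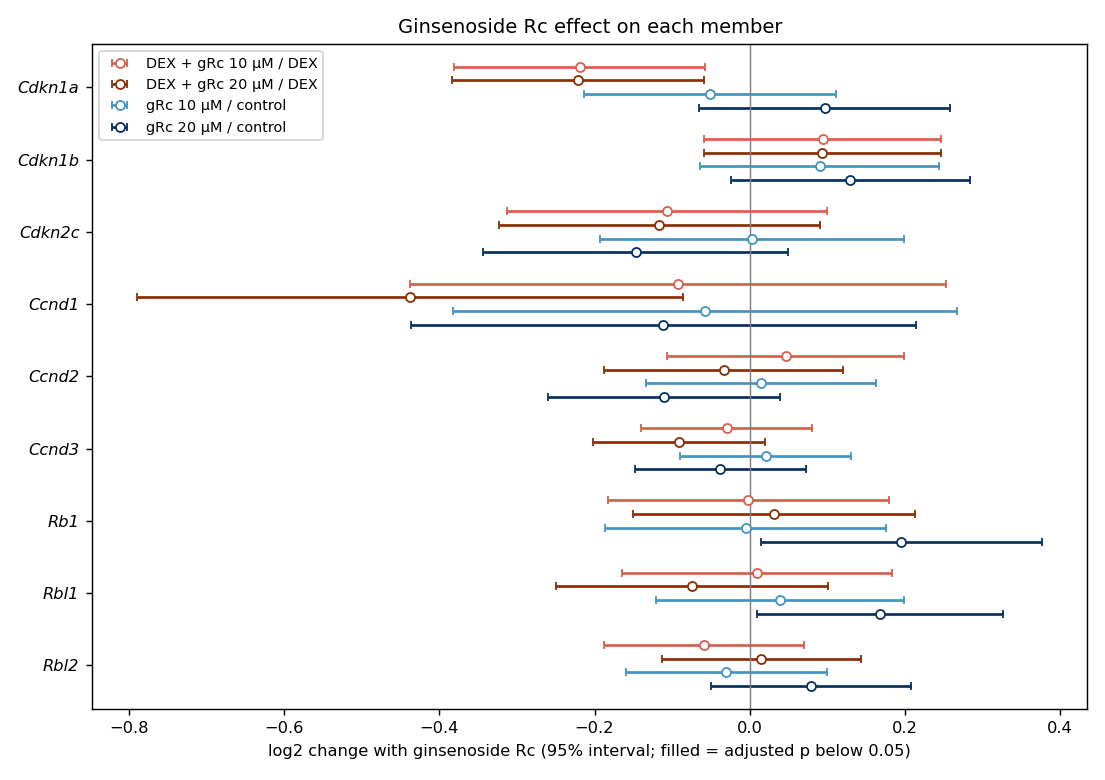
Log2 change with ginsenoside Rc of each detected member, among dexamethasone-treated (red and brown) and untreated (light and dark blue) myotubes, with 95% intervals from edgeR. All points are open because no adjusted p was below 0.05. The intervals of Cdkn1a with dexamethasone and of Ccnd1 at 20 µM with dexamethasone lie wholly below 0. Those of Rb1 and Rbl1 at 20 µM without dexamethasone lie wholly above 0.

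Without dexamethasone, gRc gave no call among the members in edgeR or DESeq2 at 10 µM (adjusted p = 1 for all; 0.00648% of all genes called; 0 members with an unadjusted p below 0.05) or at 20 µM (edgeR adjusted p 0.51 to 0.8; 0.104% called). At 10 µM libraries did not overlap for 2 members, Cdkn1b at 76.4, 77.8 and 77.8 CPM in gRc 10 µM and 69.6, 72.6 and 75.8 CPM in control libraries, and Ccnd1, against 12.1% of all genes. At 20 µM they did not overlap for Ccnd1 and Ccnd2 (11.7% of all genes), with Ccnd1 at 44.5 ± 1.03 CPM in gRc 20 µM and 48.1 ± 0.763 CPM in control myotubes. An unadjusted p below 0.05 was seen at 20 µM for 2 members, Rb1 (log2 change 0.20, 95% interval 0.01 to 0.38; unadjusted p = 0.036, edgeR adjusted p = 0.51) and Rbl1 (0.17, 95% interval 0.01 to 0.33; unadjusted p = 0.04, edgeR adjusted p = 0.52). Without gRc 20 µM replicate 2 these were 0.03 for Rb1 and 0.10 for Rbl1 (adjusted p = 0.94 and 0.82). For Cdkn1a the change was 0.10 with that library and -0.02 without it.

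The genes around the members in the G1 pathway were read from lists, each in DEX against control myotubes. The lists were chosen with earlier results of these data known. The counts are to be read against the 20.6% of all tested genes that were higher and the 23.2% that were lower in this comparison. Of the 2 other CDK inhibitors that were tested, Cdkn1c (p57) was lower and 0 were higher. Cdkn1c averaged 5.61 ± 0.141 CPM in DEX and 10.8 ± 0.234 CPM in control myotubes (log2 change -0.94, adjusted p = 3.3e-07), and Cdkn2d (p19) changed by -0.26 (adjusted p = 0.23). The third, Cdkn2a, had 0 counts in all 18 libraries, as Cdkn2b had. Of 10 CDKs, cyclins and activators that act with or after cyclin D, 6 were lower and 1 higher, with a median of -0.27. Ccna2, cyclin A2 of S phase, averaged 4.23 ± 1.63 CPM in DEX and 38.5 ± 2.04 CPM in control myotubes (log2 change -3.18, adjusted p = 4.7e-09), and Ccne1, cyclin E1, changed by -0.999 (adjusted p = 9.8e-07).

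Downstream of the pocket proteins, 5 of 10 E2F and DP genes were lower and 2 higher, beside 23.2% and 20.6% of all genes (median -0.15). E2f2, an activating E2F, averaged 35.7 ± 4.23 CPM in DEX and 129 ± 1.03 CPM in control myotubes (log2 change -1.85, adjusted p = 8.4e-10), while Tfdp2, a DNA-binding partner of the E2Fs, was higher (0.80, adjusted p = 1.3e-10). Of 8 genes of the MuvB complex and its partners, 4 were lower and 1 higher, beside the same 23.2% and 20.6% (median -0.25), with Foxm1 at -2.21 (adjusted p = 1.3e-09) and Mybl2 at -2.32 (adjusted p = 8.1e-09). Of 23 E2F target genes of S phase and mitosis, 22 were lower and 1 higher, with a median of -1.34 against -0.01 over all tested genes. Ccnb2, a mitotic cyclin, changed by -3.07 (adjusted p = 3e-11) and Pola1, a DNA polymerase subunit, by -1.40 (adjusted p = 5.2e-10). The 1 that rose, named after its value was seen, was the ribonucleotide reductase gene Rrm2, at 143 ± 3.58 CPM in DEX and 101 ± 1.52 CPM in control myotubes (log2 change 0.49).

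Of 9 tested genes for the ubiquitin ligases that remove p27 and the D-type cyclins, 2 were lower and 2 higher (median -0.02), a share near the 43.8% called over all genes. The lower ones were Skp2, the substrate receptor for p27 (log2 change -0.86, adjusted p = 2.1e-08), and its cofactor Cks1b (-1.56, adjusted p = 2.6e-10). This ligase acts on p27 protein, while the Cdkn1b values here are of RNA, and a link between them was not tested. Of 12 transcription factors known to act on these inhibitor and cyclin genes, 6 were higher and 3 lower, beside 20.6% and 23.2% of all genes (median 0.18). Cebpa, whose protein stabilises p21 in other cells, averaged 66.8 ± 2.12 CPM in DEX and 13.2 ± 0.859 CPM in control myotubes (log2 change 2.34, adjusted p = 1.7e-14), and its relative Cebpd changed by 1.92 (adjusted p = 6.8e-12). Of 13 p53 targets other than Cdkn1a, 7 were higher and 2 lower, beside the same 20.6% and 23.2% (median 0.20), with Trp53inp1 at 118 ± 11.6 CPM in DEX and 33.2 ± 0.641 CPM in control myotubes (log2 change 1.83, adjusted p = 1.6e-11) and Gadd45a at 0.74 (adjusted p = 1.4e-09). The 2 called lower were Sesn2 (-0.51, adjusted p = 4.8e-06) and Zmat3 (-0.37, adjusted p = 4.6e-05), and Cdkn1a, itself a p53 target, was not called. Trp53, the p53 gene on the list of transcription factors, was lower (-0.40, adjusted p = 7.7e-05). The activity of p53 was not tested.

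**Figure D5:**
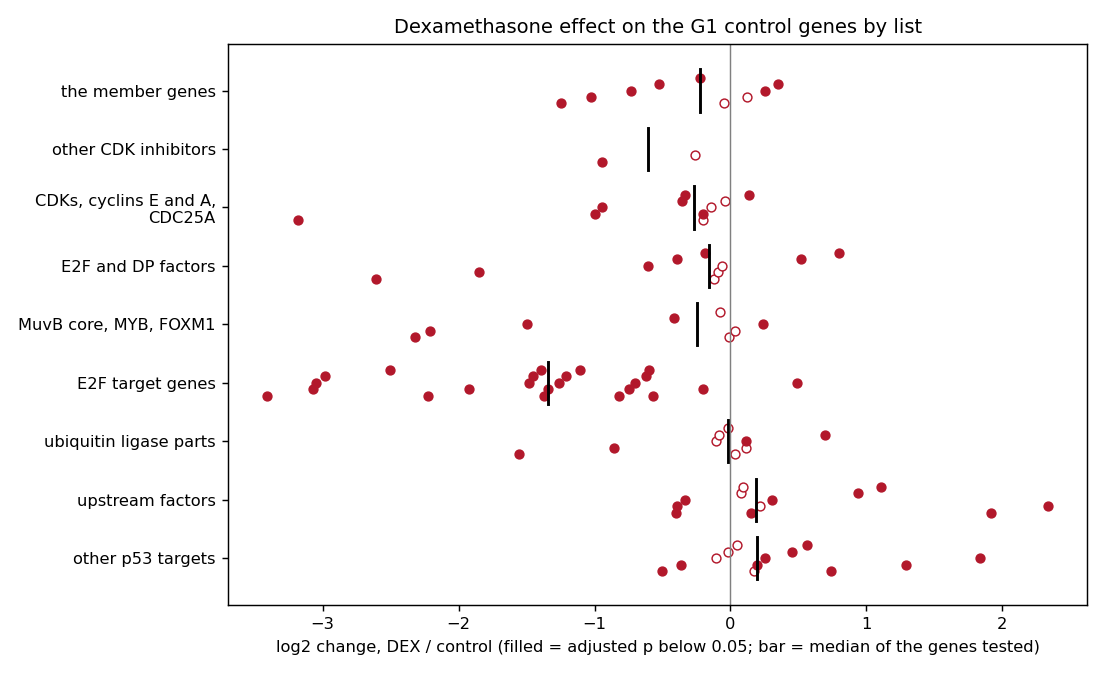
Log2 change in DEX against control myotubes of the members and of the genes around them in the G1 pathway, 1 point per tested gene, filled where the edgeR adjusted p is below 0.05, with a bar at the median of each list. The 23 E2F targets lie furthest left with a median of -1.34, and the upstream factors and p53 targets have medians of 0.18 and 0.20.

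In the 4 comparisons of gRc with its matched myotubes without gRc, 0 of the 87 tested genes of these 8 lists were called by edgeR. An unadjusted p below 0.05 was seen for 4 of the 87 in DEX + gRc 10 µM and 17 in DEX + gRc 20 µM against DEX myotubes, and for 2 in gRc 10 µM and 7 in gRc 20 µM against control myotubes. The share of all tested genes at this unadjusted p was not counted, here or for the members, so these counts have no background to be read against. The E2F targets had a median of -0.17 in DEX + gRc 20 µM against DEX myotubes, with 2 of 23 above 0. Of these 23, 6 had an unadjusted p below 0.05. In DEX + gRc 10 µM against DEX myotubes the median was -0.08, with 10 of 23 above 0. The targets summed to 320, 323 and 376 CPM in the DEX + gRc 20 µM libraries, the last within the range of 367 to 398 CPM in DEX libraries.

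Markers were read for the cells that the cultures could hold. Of 6 myotube markers, 4 were higher and 1 lower in DEX than in control myotubes, beside 20.6% and 23.2% of all genes. Ckm, muscle creatine kinase, changed by 0.77 and Myh3, embryonic myosin heavy chain, by -0.90. All 6 myotube markers together summed to 13526 to 14265 CPM in DEX and 14092 to 14612 CPM in control libraries. Of 6 markers of undifferentiated myoblasts or reserve cells, 2 were higher and 4 lower, beside the same shares. Pax7, a reserve cell factor, averaged 19.5 ± 0.793 CPM in DEX and 37.6 ± 1.06 CPM in control myotubes, whereas Myf5, a myoblast factor, averaged 51.9 ± 6.78 CPM in DEX and 23.6 ± 1.28 CPM in control myotubes. The sum of all 6 of these markers was 618 to 638 CPM in DEX and 640 to 658 CPM in control libraries.

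Pax7, Cd34, Hey1 and Cdh15 were called lower in the same libraries as the D-type cyclins and Rbl1, while Myf5 and Sdc4 were called higher there. The part of these markers in those results was not tested. Of the adipocyte markers, Plin1 was at 0 in DEX and control libraries, Adipoq averaged 0.024 CPM in DEX and 0.00845 CPM in control myotubes, and Fabp4 averaged 3.68 ± 0.485 CPM in DEX and 0.00736 CPM in control myotubes. Fabp4 was the 1 adipocyte marker tested, and it was higher (adjusted p = 6.1e-12). Of the blood markers, Ptprc, the defining one, was at 0 in the DEX libraries and at most 0.0533 CPM in the control libraries. Cd68, a macrophage marker, averaged 1.01 ± 0.114 CPM in DEX and 0.666 ± 0.195 CPM in control myotubes and was called higher (log2 change 0.59, adjusted p = 0.044), while the haemoglobin gene Hbb-bs averaged 0.377 ± 0.202 CPM in DEX and 0.505 ± 0.164 CPM in control myotubes (adjusted p = 0.57).

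Of the endothelial markers, Pecam1 was at 0 in the DEX libraries and at most 0.0533 CPM in the control libraries, and Cdh5 averaged 0.109 ± 0.107 CPM in DEX and 0.235 ± 0.065 CPM in control myotubes (adjusted p = 0.11). The 3 osteoblast markers summed to 0.153 to 0.223 CPM in DEX and 0.48 to 0.809 CPM in control libraries. Alpl (log2 change -2.33, adjusted p = 0.0011) and Sp7 (-1.33, adjusted p = 0.031) were the 2 tested, and both were lower. The part of these cell types in the members' values was not tested.

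For each member the 2 genes with the most similar profile over the 18 libraries were found among tested genes of at least average log2 CPM 1, by the root mean square difference of log2 CPM after centring each gene. Ccnd1 was nearest to Cd34 (0.0972) and Cav1 (0.106), where its own spread over the libraries was 0.732. Cd34 was on the list of undifferentiated cell markers and averaged 17 ± 2.63 CPM in DEX and 40.2 ± 1.4 CPM in control myotubes. Rbl1 was nearest to Gprin3 (0.0813) and Atad2 (0.0903), with a spread of 0.566, and Cdkn2c to Kifc3 (0.0783) and Slc2a6 (0.0831), with a spread of 0.393. Ccnd2 was nearest to Zfp518b (0.0585) and Prrc1 (0.071), with a spread of 0.26, and Cdkn1b to Tug1 (0.0501) and Phospho1 (0.0541), with a spread of 0.193. For the other 4 members, whose spread was 0.119 to 0.156, Cdkn1a was nearest to Crip2 (0.0588) and Mid1 (0.0616), Ccnd3 to Tssc4 (0.0424) and Surf4 (0.0473), Rb1 to Smap2 (0.0379) and Ccar1 (0.0391), and Rbl2 to Prkaa1 (0.0359) and Prdm4 (0.036). No test goes with these distances.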

How the data were processed

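Poly(A) RNA of 18 C2C12 myotube samples was sequenced from directional libraries, per the labels' protocols. RSEM 1.3.3, STAR 2.7.3a, FastQC 0.11.9 and Trim Galore 0.6.5 are listed with GRCm38 (mm10) in the submitters' processing notes, and the authors deposited RSEM expected counts per Ensembl gene (48795 rows, of which 48435 IDs matched a symbol). The strand setting of that counting is not given in the sources used here; of opposite-strand neighbours, reads may be shared. RSEM divides ambiguous reads, and 9.27% of the deposited expected counts were not whole.

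Rounding these to whole numbers came first; filterByExpr then selected genes (15436 of 26796 with any count), and TMM-scaled counts were fitted in 1 edgeR 4.0.16 quasi-likelihood model (R 4.3.3, limma 3.58.1) with a mean for each of 6 groups over all 18 libraries, so that the groups share the estimate of spread. The 9 comparisons were single contrasts, and p-values were adjusted by Benjamini-Hochberg over all tested genes, with a threshold of 0.05. Adjusted p-values are from this test unless DESeq2 (1.42.0) is named. CPM are TMM-scaled, levels per length use merged GENCODE M21 exons, and principal components use log2 CPM. The script was tested on simulated data. Alternatives were DESeq2, its size factors, no composition scaling, no filter, only the groups compared, the replicate number as a block and leaving out each library; a model without gRc 20 µM replicate 2 and the longest transcript as length were added after seeing the data. The members and lists were chosen with earlier results of these data known. All members are named. Of each related or marker list, the 2 genes with the smallest adjusted p in DEX against control are named. Rrm2, Cd34, Cdh15, Hey1, Sdc4, Plin1, Ptprc, Trp53, Sesn2 and Zmat3 were added outside this rule. Pooled over genes, the spread between replicates of a group exceeded counting error, with chi-square per degree of freedom of 5.08 to 85.6. This pooled value does not describe single members, and counting error was not set against the spread for each of them.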

Additional observations from a re-analysis of the deposited data

How the results depend on the processing

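Over 1134 values of a member under an alternative, 1118 kept their direction (where called) and their side of the threshold. In DEX against control all 7 calls held under every alternative, and the only other outcome was for Rb1, called at 0.12 with only the groups compared (adjusted p = 0.037) or without gRc 20 µM replicate 2 (0.024). With gRc 20 µM, members called higher with dexamethasone were 2, against 1 with only the groups compared, where Rbl2 was lost (0.18, adjusted p = 0.17), and 1 to 3 when a library was left out. Rb1, at -0.05, reversed there to 0.12 without gRc 20 µM replicate 2, within a range of -0.12 to 0.12 as single libraries were left out. In DEX + gRc 20 µM against DEX, members called lower were 0, against 0 to 1 when a library was left out and 1 without gRc 20 µM replicate 2. The cause was not tested. With the longest transcript as length, the Ccnd3 share was 95.2%, 95.3% and 95.8% in DEX, DEX + gRc 10 µM and DEX + gRc 20 µM myotubes, against 91.7%, 92% and 92.1% in control, gRc 10 µM and gRc 20 µM myotubes. Over all genes, 7934 were called in DEX against control with only the groups compared and 8104 without gRc 20 µM replicate 2, against 6755.

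The correlation of deviations between same-numbered libraries was -0.2 to 0.15, with a median of 0.00067, and over 0.1 in 4 of 45 pairs. Between differently numbered libraries the median was -0.0089. Whether same-numbered libraries share a culture cannot be told from these values, since libraries of a shared culture need not deviate alike. With the replicate block, 6652 genes were called in DEX against control, and the members called there were 2 higher and 5 lower, as without it. The block changed no member's call in any of the 9 comparisons. With 3 libraries a group, gRc changes of the members were bounded only to the widths of their intervals, and Cdkn2b only to its limit of counts.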

Other observations

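Within the dexamethasone-treated libraries, the level of Ccnd1 and the summed level of the 23 E2F target genes were lowest in the same libraries. Ccnd1 stood at 13.0 and 12.3 CPM in replicates 1 and 2 of DEX + gRc 20 µM, where the E2F targets summed to 320 and 323 CPM, and at 15.2 CPM in replicate 1 of DEX + gRc 10 µM, where they summed to 340 CPM. The highest Ccnd1 value among these 9 libraries, 24.4 CPM in DEX replicate 2, came with the highest sum, 398 CPM. Without dexamethasone the sums were 650, 664 and 661 CPM in control, 618, 618 and 648 CPM in gRc 10 µM and 645, 621 and 655 CPM in gRc 20 µM libraries. Rrm2, the target that rose with dexamethasone, was the largest single part of the sum. It averaged 143 CPM in DEX, 127 CPM in DEX + gRc 10 µM and 119 CPM in DEX + gRc 20 µM myotubes. The sum therefore does not weigh the 23 genes alike. These are descriptions, and no relation was tested.

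The INK4 locus on chromosome 4 was looked at after its values were seen. Cdkn2a (chr4:89274471-89294653) and Cdkn2b had 0 counts in all 18 libraries. Mtap, the methylthioadenosine phosphorylase gene beside them (chr4:89137122-89181081), had 50.9 to 66.7 CPM, or 2052 to 2926 counts per library. On the other side Dmrta1 had at most 1 count, and was at 0 in 17 libraries.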
